A study of Homo sapiens with 4 samples.

Results

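The 10 genes described here encode the enzymes that drive cells into mitosis and the proteins that switch those enzymes on: the cyclins CCNA2, CCNB1 and CCNB2, the kinases CDK1, AURKA, AURKB, PLK1 and NEK2, and the phosphatases CDC25B and CDC25C. They were taken as a named group of genes. All 10 were found among the 60614 gene IDs counted in each library, and all 10 passed the filter on low counts. RNA-seq (single reads on a NextSeq500) was run on total RNA of DU145, an established human prostate cancer cell line. The study set 2 SPOP-F133V libraries against 2 wild-type libraries. SPOP selects the substrates of a ubiquitin ligase built on CUL3; the F133V change lies in the domain that binds them. Both genotypes were grown in EMEM with serum, and no other treatment is named. The labels do not state whether the mutant cells were 1 clone or a pool, whether SPOP was edited or added in either genotype, or whether replicates were separate cultures. The p-values therefore measure only the spread between these libraries, which may be technical.

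Entry into mitosis is driven by CDK1, which is inactive until a cyclin binds it. Cyclin A2 acts from S phase into early mitosis, and the B cyclins act until metaphase, when they are destroyed. WEE1 and PKMYT1 hold CDK1 off by phosphorylating it, and CDC25 phosphatases remove those phosphates. Aurora A, with its activator TPX2, acts at centrosomes and spindles and, together with BORA, activates PLK1. Aurora B corrects the attachment of microtubules to chromosomes, and NEK2 helps to separate centrosomes. In cycling human cells these mRNAs peak in G2 and M phase: the DREAM complex holds their promoters silent earlier, partly through an element called CHR, and B-MYB, FOXM1 and the CCAAT-binding factor NF-Y drive them later. In bulk RNA, fewer cells in G2 and M phase and less of an mRNA in each such cell cannot be told apart.

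Promoter sequences are shown because CHR and CCAAT elements are known from the promoters of many mitotic genes. RefSeq start sites (GRCh38.p14) matched 9 of the 10 members, in 17 windows of 300 bases, 250 before the start and 50 from it on, with 1 to 4 windows a member. AURKA is named only. Both strands were searched for CHR (TTTGAA or TTCGAA), the CCAAT box (CCAAT) and a CDE-like element (GGCGG), and matches could overlap. The 6 stretches below run 5′ to 3′ along the gene across a start, with CHR and CCAAT matches in capitals; ATTGG and TTCAAA are matches on the opposite strand. The first 4 hold both elements, and the last 2 hold a pair of CCAAT boxes without CHR letters.
CCNB2, chr15:59105021-59105170, plus strand: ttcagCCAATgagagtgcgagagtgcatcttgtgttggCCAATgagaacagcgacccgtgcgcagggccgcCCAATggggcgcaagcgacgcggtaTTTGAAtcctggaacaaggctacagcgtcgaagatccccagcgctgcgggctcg
CDK1, chr10:60778353-60778502, plus strand: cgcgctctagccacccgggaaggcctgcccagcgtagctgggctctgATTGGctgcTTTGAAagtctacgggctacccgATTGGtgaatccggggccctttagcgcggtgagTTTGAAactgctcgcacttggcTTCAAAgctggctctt
PLK1, chr16:23678764-23678913, plus strand: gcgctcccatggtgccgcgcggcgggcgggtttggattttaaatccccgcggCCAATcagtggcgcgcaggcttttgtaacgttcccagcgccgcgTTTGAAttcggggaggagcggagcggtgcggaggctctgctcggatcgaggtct
CDC25C, chr5:138331780-138331929, minus strand: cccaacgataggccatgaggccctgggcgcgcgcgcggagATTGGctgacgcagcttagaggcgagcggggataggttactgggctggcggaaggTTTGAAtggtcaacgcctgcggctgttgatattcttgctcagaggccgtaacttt
CCNB1, chr5:69167025-69167174, plus strand: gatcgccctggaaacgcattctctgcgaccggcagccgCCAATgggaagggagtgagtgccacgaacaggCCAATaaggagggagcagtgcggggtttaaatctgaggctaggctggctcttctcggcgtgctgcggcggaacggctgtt
NEK2, chr1:211675597-211675746, minus strand: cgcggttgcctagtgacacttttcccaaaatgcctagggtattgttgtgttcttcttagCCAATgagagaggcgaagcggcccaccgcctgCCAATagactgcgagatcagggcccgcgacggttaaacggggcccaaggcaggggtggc

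CHR letters stood in 5 members (CCNB2, CDK1, PLK1, CDC25B and CDC25C), each in a window that also held a CCAAT box, and CCAAT letters stood in all 9. Counted by window, 7 of the 17 member windows (41.2%) held CHR letters, 13 (76.5%) a CCAAT box and 7 both. Of all RefSeq windows of this length, 16.4% held CHR letters, 34.6% a CCAAT box and 6.38% both. CDE-like letters stood in 16 of the member windows (94.1%) and in 59.0% of all windows. In both CCNB2 and PLK1 the CHR letters began 29 bases before the start, and in CDC25C 30 bases before it. These starts lie inside the annotated genes, 68 bases in for CCNB2, 1233 for PLK1 and 6551 for CDC25C. Elsewhere, CHR letters began 38 bases before a CDC25B start and 43 bases after another CDC25C start. In CDK1 they stood at -161 from the start at 60778331, and at -69, -13 and 9 from that at 60778478. CCAAT boxes lay 32 bases apart on 1 strand in CCNB1, CDK1 and NEK2 and 33 bases apart in CCNB2. That spacing stood in 4 member windows (23.5%) and in 0.513% of all windows, and it was picked out after these sequences had been seen. Windows of 1 gene can overlap, so they are not independent. A match is a run of letters and not a measured site.

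**Figure D1:**
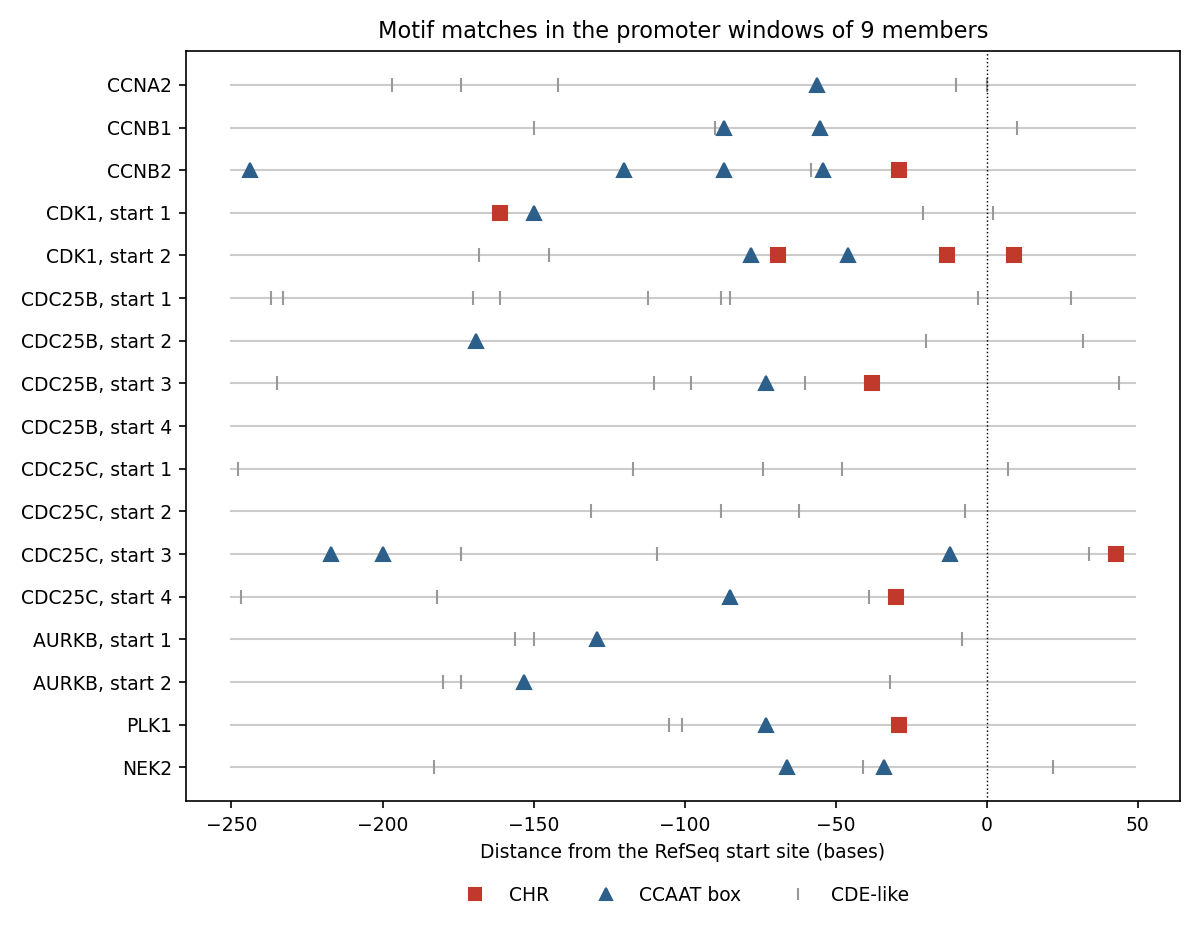
Positions of CHR, CCAAT box and CDE-like matches (symbols) in each promoter window of the 9 matched members (rows); the horizontal axis is the distance from the RefSeq start site in bases. CHR letters appear in windows of 5 members and CCAAT boxes in windows of all 9.

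Reads assigned to genes numbered 35173245 to 39642063 a library, and no member had fewer than 994 reads in any library. SPOP itself stood at 1171 and 1151 CPM in the F133V libraries, against 844 and 906 CPM in the wild-type libraries (CPM are counts scaled to library size with TMM factors). Its log2 fold change was 0.41 ± 0.055 (SE; edgeR adjusted p = 2.7e-06), and gene counts do not separate mutant from wild-type transcripts. The epithelial markers EPCAM, CDH1, KRT8, KRT18 and KRT19 were expressed in every library, whereas the luminal prostate markers KLK3 and FOLH1 and the hematopoietic PTPRC had at most 1 read. Fold changes between the genotypes depended on transcript GC content: the median log2 fold change (F133V minus wild-type) was -0.68 in the lowest of 10 GC bins and 0.29 in the highest. A like slope set F133V replicate 2 apart from replicate 1 (Spearman rho 0.77 over genes, a description, since genes share libraries) but not the wild-type replicates from each other (rho -0.072). Each member is therefore given without and with an offset for GC content and transcript length. The offset also removes any real difference that follows GC content or length.

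Without the offset, 6 members fell in F133V cells, 1 rose and 3 did not pass. CCNA2, CDK1 and NEK2 had mean levels 33.1%, 35.6% and 35.1% below wild-type, CCNB1, CCNB2 and AURKA fell by less, CDC25B rose, and CDC25C, AURKB and PLK1 did not pass. Of all 17539 tested genes, 54.8% were called, 27.6% lower and 27.2% higher (edgeR, adjusted p under 0.05 over all genes). The median log2 fold change was -0.23 over the members and 0.022 over all genes. With the offset, 6 members were lower, 0 higher and 4 did not pass, beside 52.2% of all 17299 genes called, 24.6% lower and 27.6% higher. CCNA2, CCNB2, AURKA and NEK2 were lower in both fits. CCNB1 and CDK1 passed only without the offset, and AURKB and PLK1 only with it. With the offset the median was -0.17 over the members and 0.017 over all genes.

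**Figure D2:**
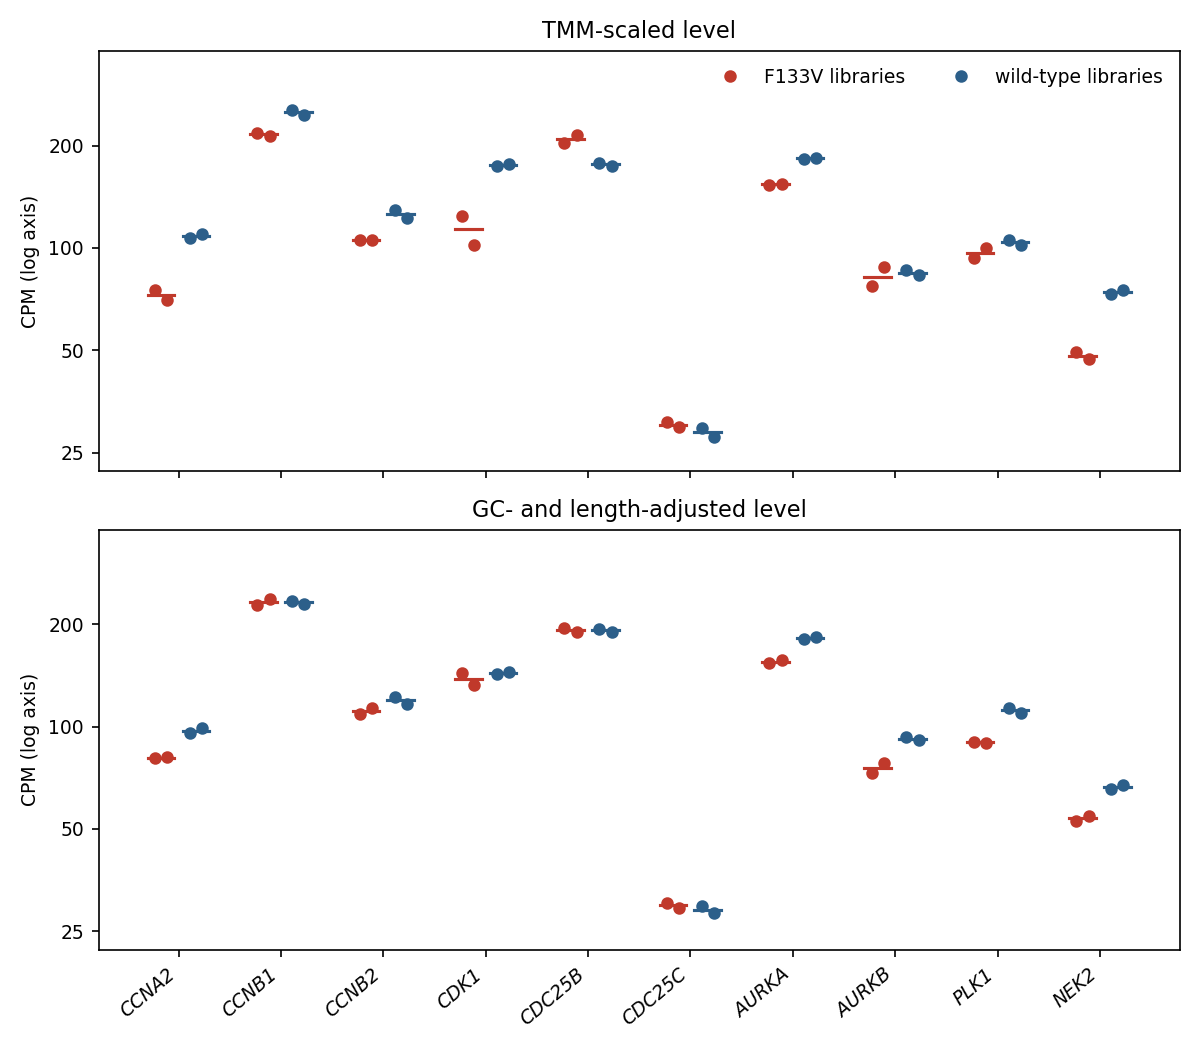
Level of each member in CPM (log axis) in each library, F133V in red and wild-type in blue, before and after adjustment for GC content and length; points are libraries and bars group means. Before adjustment both F133V libraries lie below both wild-type libraries in 7 members and above in 2, with 1 overlapping. Over all tested genes they lie below in 37.8% and above in 40.1%. After adjustment they lie below in 6 members and overlap in 4, and no all-gene share was computed on that scale.

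CCNA2 (ENSG00000145386.11, chr4:121816444-121823933, minus strand) fell the most of the cyclins. It stood at 75.0 and 70.3 CPM in the F133V libraries, against 107 and 110.2 CPM in the wild-type libraries. The groups did not overlap; both F133V libraries lay below both wild-type libraries in 37.8% of all tested genes. Its log2 fold change was -0.58 ± 0.065 (SE; edgeR adjusted p = 2.65e-07) and -0.26 ± 0.039 with the offset (edgeR adjusted p = 3.87e-07). CCNA2 stayed negative under all 18 alternative settings and passed in each that kept all 4 libraries. It shares 9.08% of its exonic length with EXOSC9 on the opposite strand, and the sources used here do not say whether reads were counted by strand.

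CCNB1 (ENSG00000134057.15, chr5:69167010-69178245, plus strand), the partner of CDK1 at mitotic entry, fell only without the offset. It stood at 218 and 214 CPM in the F133V libraries, against 255 and 247 CPM in the wild-type libraries, with no overlap. This gave a log2 fold change of -0.22 ± 0.057 (SE; edgeR adjusted p = 0.00328). After adjustment it stood at 228 and 238 CPM in the F133V libraries, against 235 and 229 CPM in the wild-type libraries, and the groups overlapped. Its fold change was then 0.0070 ± 0.034 with the offset (edgeR adjusted p = 0.883), 95% interval -0.062 to 0.076. The unadjusted call for CCNB1 was also lost with upper-quartile scaling (edgeR adjusted p = 0.132). Its unadjusted value was -0.20 without wild-type replicate 1 and -0.24 without wild-type replicate 2.

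CCNB2 (ENSG00000157456.8, chr15:59105078-59125045, plus strand), the B cyclin of the Golgi, fell in both fits, and by less than CCNA2. It stood at 106 and 106 CPM in the F133V libraries, against 129 and 123 CPM in the wild-type libraries, without overlap. The fold change was -0.26 ± 0.062 (SE; edgeR adjusted p = 0.00162) and -0.10 ± 0.038 with the offset (edgeR adjusted p = 0.0216). Without wild-type replicate 1, CCNB2 gave -0.22 and, with the offset, -0.067. The CCNB2 call was lost with upper-quartile scaling (edgeR adjusted p = 0.055) and with an offset for GC content alone (adjusted p = 0.149). It was also lost with an offset from the longest protein-coding transcript (-0.079, adjusted p = 0.0727).

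CDK1 (ENSG00000170312.16, chr10:60778331-60794852, plus strand), the kinase these cyclins activate, had the lowest unadjusted value of the 10, within 1 SE of NEK2. It stood at 124 and 102 CPM in the F133V libraries, against 175 and 177 CPM in the wild-type libraries. Both F133V libraries were lower, and they differed from each other by -0.28 on the log2 scale (replicate 2 minus replicate 1). A fold change of -0.63 ± 0.074 (SE; edgeR adjusted p = 4.47e-07) resulted. CDK1 has the lowest GC content of the members, 37.0%, and genes in its GC bin had a median of -0.68. After adjustment it stood at 143 and 132.9 CPM in the F133V libraries, against 142 and 145 CPM in the wild-type libraries, which overlap. Its fold change was then -0.054 ± 0.037 with the offset (edgeR adjusted p = 0.236), 95% interval -0.13 to 0.022. With the offset, CDK1 gave -0.14 without F133V replicate 1 and -0.0028 without F133V replicate 2.

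CDC25B (ENSG00000101224.18, chr20:3786772-3806121, plus strand), a phosphatase that starts CDK1 activation at centrosomes, rose without the offset. It stood at 204 and 215 CPM in the F133V libraries, against 178 and 174 CPM in the wild-type libraries. Both F133V libraries were above both wild-type libraries, as in 40.1% of all tested genes. The values were 0.25 ± 0.059 (SE; edgeR adjusted p = 0.00128) and 0.0048 ± 0.034 with the offset (edgeR adjusted p = 0.921), the second with a 95% interval -0.065 to 0.074. CDC25B has the highest GC content of the members, 59.3%, and the median of its GC bin was 0.23. Unadjusted, CDC25B gave 0.26 without wild-type replicate 1 and 0.23 without wild-type replicate 2.

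CDC25C (ENSG00000158402.21, chr5:138285265-138338355, minus strand), a phosphatase of the loop that fully activates CDK1, passed in neither fit. It stood at 30.7 and 29.6 CPM in the F133V libraries, against 29.5 and 27.9 CPM in the wild-type libraries. The lower F133V library and the higher wild-type library were nearly equal. Its fold change was 0.074 ± 0.076 (SE; edgeR adjusted p = 0.435), 95% interval -0.085 to 0.23, and 0.044 ± 0.054 with the offset (edgeR adjusted p = 0.514), 95% interval -0.065 to 0.15. CDC25C was called higher with upper-quartile scaling alone (0.18, adjusted p = 0.0434). It shares 8.78% of its exonic length with FAM53C on the opposite strand.

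AURKA (ENSG00000087586.18, chr20:56369389-56392337, minus strand), the centrosomal Aurora kinase, fell by nearly the same amount in both fits. It stood at 154 and 155 CPM in the F133V libraries, against 183 and 183 CPM in the wild-type libraries, and replicates were close in both groups. The fold change was -0.25 ± 0.058 (SE; edgeR adjusted p = 0.00111) and -0.23 ± 0.035 with the offset (edgeR adjusted p = 4.62e-07). Its GC content is 46.6%, and genes of that bin had a median of -0.057. Unadjusted, AURKA gave -0.25 without wild-type replicate 1 and -0.26 without wild-type replicate 2.

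AURKB (ENSG00000178999.13, chr17:8204733-8210600, minus strand), the kinase of the chromosomal passenger complex, was lower only with the offset. It stood at 77.1 and 87.6 CPM in the F133V libraries, against 85.9 and 83.0 CPM in the wild-type libraries, and the groups overlapped. That gave -0.036 ± 0.070 (SE; edgeR adjusted p = 0.687), 95% interval -0.18 to 0.11. The unadjusted value was 0.075 with upper-quartile scaling, 0.022 without F133V replicate 1 and -0.13 without F133V replicate 2. After adjustment it stood at 72.9 and 78.1 CPM in the F133V libraries, against 92.9 and 91.1 CPM in the wild-type libraries, with no overlap. AURKB then gave -0.29 ± 0.041 with the offset (edgeR adjusted p = 1.98e-07).

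PLK1 (ENSG00000166851.15, chr16:23677656-23690367, plus strand), which promotes mitotic entry, centrosome maturation and cytokinesis, also passed only with the offset. It stood at 93.7 and 99.7 CPM in the F133V libraries, against 106 and 102 CPM in the wild-type libraries. Both F133V libraries were lower by a small margin, -0.10 ± 0.064 (SE; edgeR adjusted p = 0.179), 95% interval -0.24 to 0.030, and upper-quartile scaling gave 0.0072. Unadjusted, PLK1 gave -0.091 without F133V replicate 1 and -0.15 without F133V replicate 2. After adjustment it stood at 90.1 and 89.5 CPM in the F133V libraries, against 114 and 110.0 CPM in the wild-type libraries. Its value of -0.32 ± 0.038 with the offset (edgeR adjusted p = 5.07e-09) was the lowest of the 10 in that fit. It shares 11.6% of its exonic length with an antisense transcript.

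NEK2 (ENSG00000117650.13, chr1:211658657-211675630, minus strand), which loosens the link between centrosomes, fell in both fits. It stood at 49.3 and 47.0 CPM in the F133V libraries, against 73.4 and 75.0 CPM in the wild-type libraries, with close replicates and no overlap. NEK2 gave -0.62 ± 0.068 (SE; edgeR adjusted p = 1.86e-07) and -0.31 ± 0.043 with the offset (edgeR adjusted p = 1.68e-07). Like CCNA2, it stayed negative under all 18 alternative settings and passed in each that kept all 4 libraries.

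**Figure D3:**
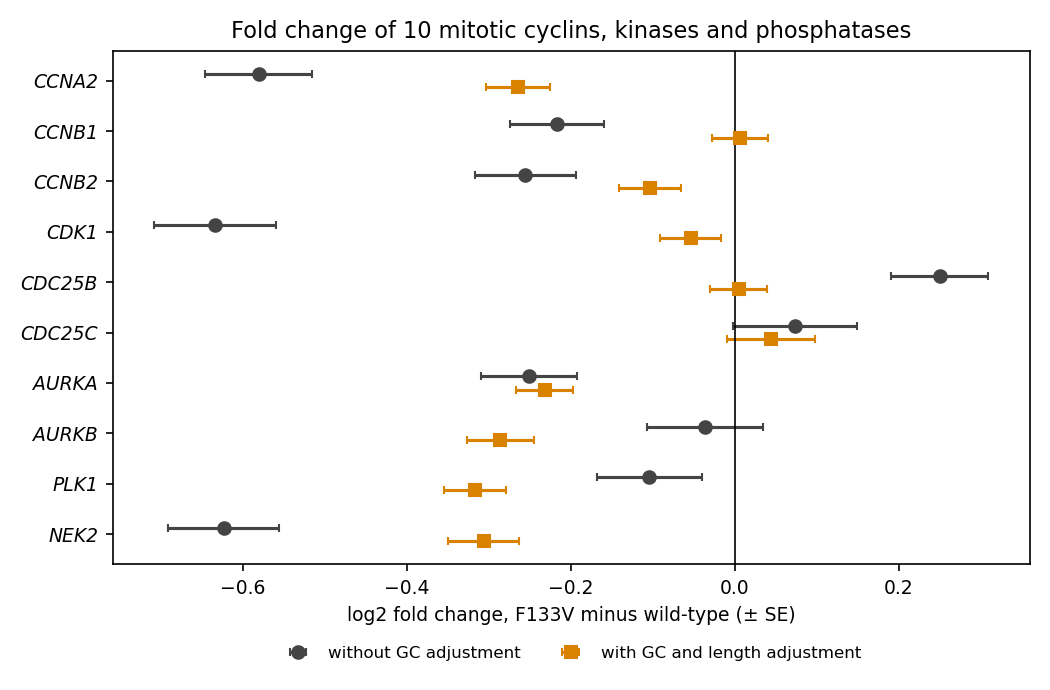
Log2 fold change of each member (horizontal axis, F133V minus wild-type) with bars of 1 SE, without (circles) and with (squares) the GC and length offset. CCNA2, CDK1 and NEK2 lie between -0.63 and -0.58 without the offset, and AURKB, PLK1 and NEK2 between -0.32 and -0.29 with it.

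The members differed among themselves less with the offset (SD of the 10 log2 fold changes 0.14) than without it (SD 0.30). Without it, their order was close to their order in GC content (Spearman rho 0.915 over 10 genes from the same 4 libraries, a description). With it, rho was -0.006. The offset is fitted to GC content, so the fall in rho is largely built in and adds no result about the members. A smaller SD can follow from the offset as well. Unadjusted, 54.8% of genes in the GC bin of CDK1 were as low as it or lower, 47.2% in that of CCNB1 and 52.4% in that of CDC25B, near the middle. PLK1 and AURKB stood low in theirs, at 9.01% and 15.0%. NEK2, AURKA and CCNA2 stood at 20.4%, 21.6% and 23.7%, and CCNB2 and CDC25C at 41.9% and 68.9%.

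**Figure D4:**
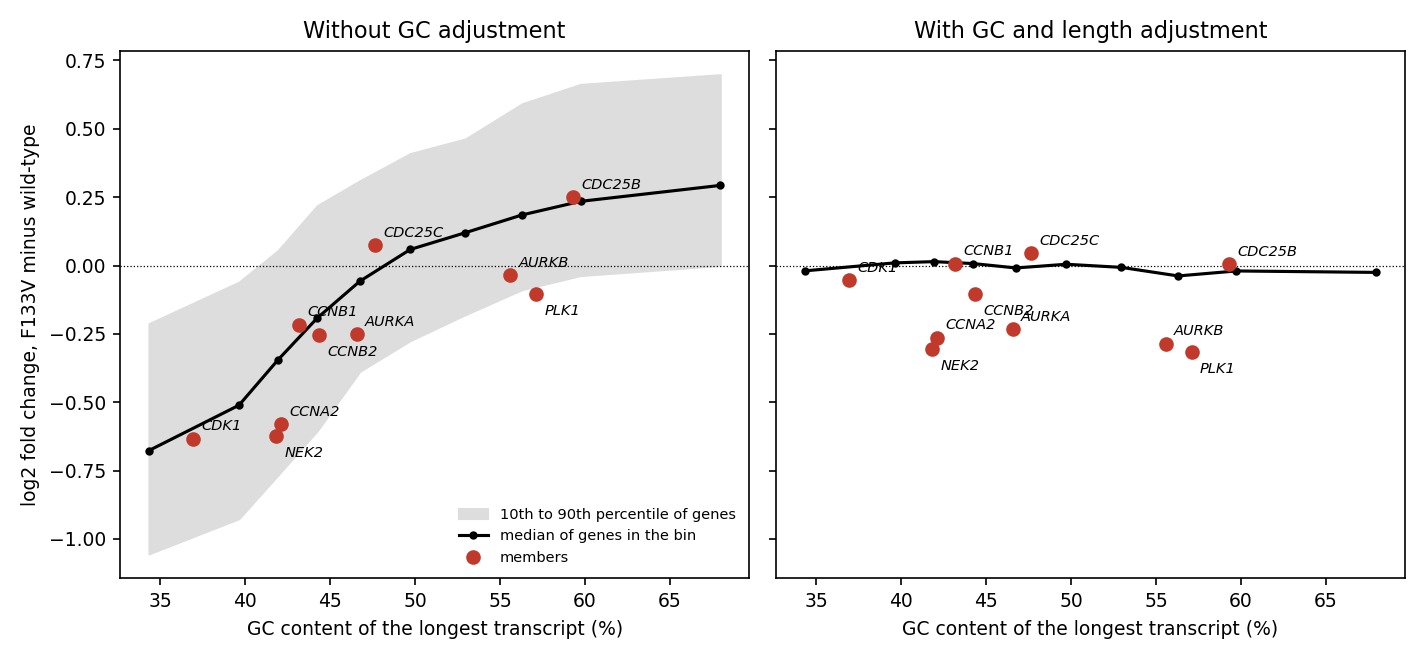
Log2 fold change (F133V minus wild-type) against GC content of the longest transcript in percent, without and with the GC and length offset; the line is the median of genes in each of 10 GC bins, the grey band (left) their 10th to 90th percentile, and the labelled points are members. Without the offset CDK1, CCNB1 and CDC25B lie close to the median line at -0.63, -0.22 and 0.25; with it AURKB and PLK1 lie below the line at -0.29 and -0.32.

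Levels were compared between genes as unadjusted CPM per kilobase of the longest protein-coding transcript. CCNB1 was highest in both genotypes, with 99.5 ± 1.38 CPM per kb in F133V cells and 116 ± 2.58 in wild-type (SD, n = 2 each). CDC25C was lowest, with 14.2 ± 0.362 CPM per kb in F133V cells and 13.5 ± 0.545 in wild-type. CDK1 ranked 5 in F133V cells, with 58.2 ± 7.98 CPM per kb, and 2 in wild-type, with 90.3 ± 0.858. In F133V cells, AURKA (68.5 CPM per kb) lay within 1 SD of AURKB (65.7 ± 5.95), and CDC25B (58.3 ± 2.27) within 1 SD of CDK1, so the order within these pairs does not exceed their spread. The per-kb ratio of CCNB1 to CDK1 was 1.57 and 1.88 in the F133V libraries, against 1.31 and 1.25 in the wild-type libraries. On GC-adjusted levels it was 1.43 and 1.61 in the F133V libraries, against 1.48 and 1.42 in the wild-type libraries, and the groups overlapped. GC content is 43.2% for CCNB1 and 37.0% for CDK1, and the ranks above are on unadjusted levels. The ratio of CCNB2 to CCNB1, genes of like GC content, was 0.42 and 0.428 in the F133V libraries, against 0.44 and 0.431 in the wild-type libraries. After adjustment that ratio was 0.413 and 0.414 in the F133V libraries, against 0.451 and 0.441 in the wild-type libraries. These ratios were not tested.

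Most partners of the Aurora kinases and PLK1 were lower in both fits. Of 11 tested, 0 rose, 7 fell and 4 did not pass, with a median log2 fold change of -0.29; with the offset 0 were higher, 8 lower and 3 did not pass, with a median of -0.30. Here and for the lists below, the reference is the share of all tested genes called. That was 27.6% lower and 27.2% higher without the offset, and 24.6% lower and 27.6% higher with it. BORA, the PLK1 activator, averaged 10.3 ± 0.224 CPM in F133V, against 21.4 ± 0.275 CPM in wild-type (SD, n = 2 each). It gave -1.05 ± 0.087 (SE; edgeR adjusted p = 5.13e-09) and -0.66 ± 0.071 with the offset (edgeR adjusted p = 4.38e-10), and shares 37.0% of its exonic length with DIS3 on the opposite strand. ECT2, a RhoA exchange factor that acts with PLK1 in cytokinesis, averaged 138 ± 14.7 CPM in F133V, against 291 ± 13.9 CPM in wild-type (SD, n = 2 each). ECT2 gave -1.07 ± 0.069 (SE; edgeR adjusted p = 3.09e-10) and -0.48 ± 0.036 with the offset (edgeR adjusted p = 3.37e-14). CEP192, a centrosome scaffold for Aurora A and PLK1, gave -0.72 ± 0.073 (SE; edgeR adjusted p = 7.34e-08) and -0.30 ± 0.042 with the offset (edgeR adjusted p = 1.32e-07). PPP1R12A, a phosphatase subunit that opposes PLK1, gave -0.86 ± 0.077 (SE; edgeR adjusted p = 1.45e-08) and -0.30 ± 0.041 with the offset (edgeR adjusted p = 1.07e-07).

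Most other mitotic kinases fell without the offset. Of 15 tested, 1 rose, 11 fell and 3 did not pass, with a median log2 fold change of -0.52; with the offset 0 were higher, 9 lower and 6 did not pass, with a median of -0.18. TTK, a spindle checkpoint kinase, averaged 35.2 ± 3.76 CPM in F133V, against 70.5 ± 0.281 CPM in wild-type (SD, n = 2 each). It gave -1.003 ± 0.077 (SE; edgeR adjusted p = 2.11e-09) and -0.57 ± 0.046 with the offset (edgeR adjusted p = 2.57e-13). PLK4, which starts centriole duplication, gave -0.98 ± 0.080 (SE; edgeR adjusted p = 4.23e-09) and -0.42 ± 0.049 with the offset (edgeR adjusted p = 3.35e-09). MELK, a kinase abundant in mitotic cells, gave -0.56 ± 0.064 (SE; edgeR adjusted p = 3.05e-07) and -0.21 ± 0.035 with the offset (edgeR adjusted p = 3.37e-06). PBK, another kinase active in mitosis, gave -0.61 ± 0.070 (SE; edgeR adjusted p = 3.89e-07) and -0.19 ± 0.043 with the offset (edgeR adjusted p = 0.000356).

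Direct controllers of CDK1-cyclin B had more lower than higher calls without the offset and more higher than lower calls with it. Of 15 tested, 1 rose, 8 fell and 6 did not pass, with a median log2 fold change of -0.23; with the offset 8 were higher, 5 lower and 2 did not pass, with a median of 0.16. WEE1, the inhibitory kinase, averaged 30.1 ± 0.0710 CPM in F133V, against 42.5 ± 0.584 CPM in wild-type (SD, n = 2 each). It gave -0.50 ± 0.073 (SE; edgeR adjusted p = 7.36e-06) and 0.12 ± 0.054 with the offset (edgeR adjusted p = 0.0683). CCNH, the cyclin of the CDK-activating kinase, was lower without the offset and higher with it, at -0.44 ± 0.077 (SE; edgeR adjusted p = 6.2e-05) and 0.21 ± 0.049 with the offset (edgeR adjusted p = 0.000508). MASTL, the Greatwall kinase, fell in both fits, at -0.56 ± 0.082 (SE; edgeR adjusted p = 7.43e-06) and -0.30 ± 0.054 with the offset (edgeR adjusted p = 1.13e-05). ARPP19, which MASTL phosphorylates to inhibit a phosphatase that opposes CDK1, gave -0.72 ± 0.068 (SE; edgeR adjusted p = 2.89e-08) and -0.056 ± 0.035 with the offset (edgeR adjusted p = 0.182).

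Transcription factors and repressors of cell cycle genes were mixed. Of 17 tested, 0 rose, 8 fell and 9 did not pass, with a median log2 fold change of -0.12; with the offset 5 were higher, 7 lower and 5 did not pass, with a median of -0.0061. Among all tested genes 27.6% were lower and 27.2% higher, and with the offset 24.6% lower and 27.6% higher. RBL1, a pocket protein that can take part in DREAM, gave -1.02 ± 0.080 (SE; edgeR adjusted p = 2.85e-09) and -0.51 ± 0.058 with the offset (edgeR adjusted p = 1.61e-09). LIN9, of the MuvB core of DREAM, gave -0.79 ± 0.093 (SE; edgeR adjusted p = 4.71e-07) and -0.39 ± 0.070 with the offset (edgeR adjusted p = 9.55e-06). LIN54, the MuvB subunit that binds CHR, gave -0.71 ± 0.090 (SE; edgeR adjusted p = 1.46e-06) and -0.13 ± 0.077 with the offset (edgeR adjusted p = 0.145). DYRK1A, a kinase that promotes DREAM assembly, gave -0.37 ± 0.071 (SE; edgeR adjusted p = 0.000158) and 0.053 ± 0.044 with the offset (edgeR adjusted p = 0.324).

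Of the 8 G1/S cyclins and CDKs, CCND2 was too low to test. Of 7 tested, 2 rose, 3 fell and 2 did not pass, with a median log2 fold change of -0.074; with the offset 1 was higher, 3 lower and 3 did not pass, with a median of -0.092. The all-gene shares were 27.6% lower and 27.2% higher, and with the offset 24.6% lower and 27.6% higher. CCNE2, a cyclin of S phase entry, gave -1.11 ± 0.092 (SE; edgeR adjusted p = 5.89e-09) and -0.48 ± 0.077 with the offset (edgeR adjusted p = 1.68e-06), and shares 37.1% of its exonic length with INTS8 on the opposite strand. CCND1, a G1 cyclin, gave -0.36 ± 0.056 (SE; edgeR adjusted p = 1.55e-05) and -0.42 ± 0.033 with the offset (edgeR adjusted p = 1.04e-13). CCND3, its relative, gave 0.42 ± 0.075 (SE; edgeR adjusted p = 7.15e-05) and 0.19 ± 0.048 with the offset (edgeR adjusted p = 0.00135). CDK6, a partner of the D cyclins, gave -0.71 ± 0.079 (SE; edgeR adjusted p = 2.56e-07) and -0.092 ± 0.055 with the offset (edgeR adjusted p = 0.163).

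Most proliferation markers were lower in both fits. Of 6 tested, 0 rose, 5 fell and 1 did not pass, with a median log2 fold change of -0.29; with the offset 0 were higher, 6 lower and 0 did not pass, with a median of -0.30. MKI67, the Ki-67 antigen, averaged 411 ± 27.5 CPM in F133V, against 731 ± 9.90 CPM in wild-type (SD, n = 2 each). It gave -0.83 ± 0.058 (SE; edgeR adjusted p = 7.58e-10) and -0.74 ± 0.035 with the offset (edgeR adjusted p = 1.09e-19). TOP2A, a topoisomerase of mitotic chromosomes, gave -1.13 ± 0.074 (SE; edgeR adjusted p = 3.59e-10) and -0.57 ± 0.037 with the offset (edgeR adjusted p = 8.1e-16). TYMS, which makes thymidylate, gave -0.30 ± 0.056 (SE; edgeR adjusted p = 0.000149) and -0.40 ± 0.033 with the offset (edgeR adjusted p = 4.73e-13), and RRM2, of ribonucleotide reductase, gave -0.28 ± 0.056 (SE; edgeR adjusted p = 0.000254) and -0.19 ± 0.033 with the offset (edgeR adjusted p = 9.6e-06). TYMS shares 39.2% of its exonic length with ENOSF1 on the opposite strand, and RRM2 20.2% with a gene on its own strand.

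**Figure D5:**
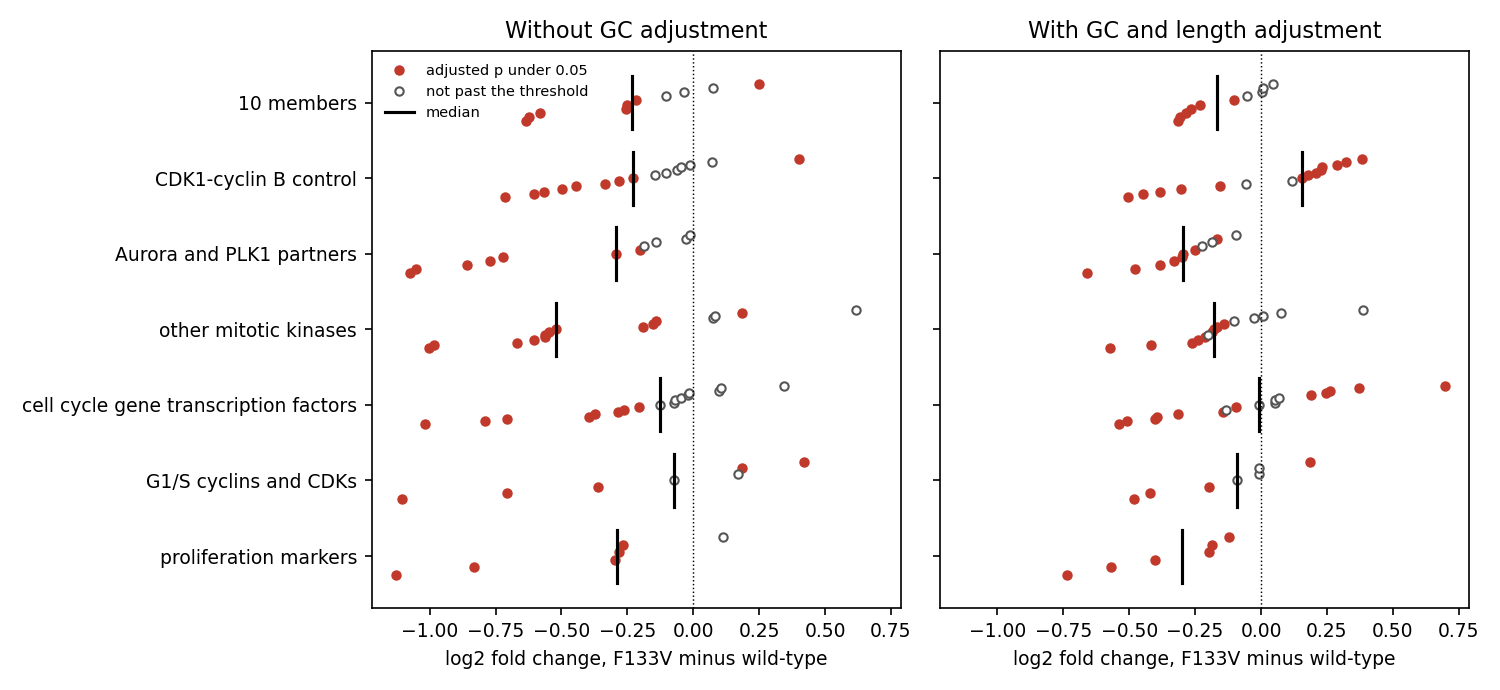
Log2 fold change (F133V minus wild-type) of the 10 members and of 6 related gene lists, without and with the GC and length offset; each point is a tested gene, filled where its adjusted p is under 0.05, and vertical bars are medians. The medians of Aurora and PLK1 partners are -0.29 without and -0.30 with the offset, and those of CDK1-cyclin B control genes -0.23 and 0.16. Among all tested genes 27.6% were called lower and 27.2% higher without the offset, and 24.6% lower and 27.6% higher with it.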

How the data were processed

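The genotype label put 2 DU145 RNA-seq libraries in the SPOP-F133V group and 2 in the wild-type group. Values are raw gene counts as deposited, made with TopHat2 2.0.10 and HTSeq 0.6.0 on hg38, per the submitters' processing notes, which name no annotation release or strand setting. Reads over no gene (6.12% to 6.53% of each table), over several genes (3.50% to 3.73%) and with several alignments (13.6% to 16.6%) were left out. Symbols were matched for 60444 of 60614 IDs, and positions, lengths and GC content came from GENCODE release 29 on GRCh38.

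Counts were tested in R 4.3.3 with edgeR 4.0.16 (filterByExpr, TMM, two-sided quasi-likelihood F-test), with Benjamini-Hochberg adjustment across every gene tested and a threshold of 0.05. The SE is the fold change over the square root of F. For the offset, the log2 deviation of each library was fitted with a smooth of GC content and of log2 length for the longest transcript (mgcv 1.9.3); 98.6% of tested genes had such values. Alternatives were other scalings and filters, DESeq2 1.42.0, a replicate block and leaving out each library. Tests were first run on simulated counts. Named genes were SPOP, the members and, in each of 6 lists, the 4 called genes of lowest adjusted p without the offset. Members and lists were chosen with earlier results of these data known. Replicates differed by more than counting noise (chi-square per degree of freedom 7.68 in F133V and 1.64 in wild-type).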

Additional observations from a re-analysis of the deposited data

How the results depend on the processing

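Over 18 alternatives, 1 of them (an offset from the longest protein-coding transcript) chosen after seeing the data, CCNA2, CCNB2, AURKA and NEK2 stayed negative, at -0.66 to -0.23, -0.30 to -0.067, -0.28 to -0.14 and -0.69 to -0.25. The other 6 members changed sign at least once. Upper-quartile scaling moved the all-gene median to 0.13, against 0.022 with TMM, and called 6462 genes higher and 3831 lower, against 4763 and 4841. Under it 2 members were higher and 4 lower, against 1 and 6 with TMM, and AURKB gave 0.075 and PLK1 0.0072. DESeq2 called 2955 genes higher. Every offset setting left 0 members higher. With the GC and length offset on all 4 libraries, 27.6% of all tested genes were called higher. Leaving out 1 library gave 2786 to 5225 genes higher, 0 to 1 members higher and 3 to 8 members lower; the lowest of these counts came without wild-type replicate 1 (2819 genes higher, 0 members higher, 3 lower) or 2 (2786, 0 and 4). The number of all genes called lower also changed between these fits, and each left 1 library in 1 group. Their counts of members lower are therefore no result about the members. AURKB gave 0.022 without F133V replicate 1 and -0.13 without replicate 2.

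With the offset, with the offset and replicate block, and for GC content alone, CCNB1 gave 0.0070, 0.0068 and 0.056, WEE1 0.12, 0.12 and 0.12, and CCNH 0.21, 0.21 and 0.26. DYRK1A gave 0.053 and, with the block, 0.054. For GC content alone CDK1 gave 0.016 and CDC25B -0.0040. From the protein-coding transcript, CCNB1 gave 0.033, CCNH 0.25 and DYRK1A 0.066, whereas WEE1 gave -0.048 (edgeR adjusted p = 0.454). Where leaving out 1 library with the offset turned a direction, values were 0.0048 to 0.027 for CCNB1, -0.046 to -0.012 for CDC25B, -0.011 for CDC25C, 0.027 to 0.17 for WEE1, 0.17 to 0.22 for CCNH (0.20 without wild-type replicate 2), and 0.031 to 0.11 for DYRK1A (0.070 without F133V replicate 2). The cause was not tested.

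Replicate numbers pair no samples in the labels, and same-numbered libraries deviated with a correlation of -0.053 across genes. A replicate block called 4619 genes higher and 4746 lower and changed no member's call. For CDC25C, the member with the fewest reads, counting error alone gives an SE of 0.044 on the log2 scale, against 0.076 in the fit without the offset and 0.054 with it.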

Other observations

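With the GC and length offset, all 3 subunits of the CDK-activating kinase were higher in F133V cells: CDK7 gave 0.32 ± 0.046 with the offset (edgeR adjusted p = 2.61e-07) and MNAT1 gave 0.38 ± 0.050 with the offset (edgeR adjusted p = 2.39e-08), beside the value of 0.21 for CCNH. Without it CDK7 gave -0.060 ± 0.074 (SE; edgeR adjusted p = 0.512) and MNAT1 -0.23 ± 0.084 (SE; edgeR adjusted p = 0.0264). CKS1B and CKS2, small CDK1-binding proteins, gave 0.16 ± 0.036 with the offset (edgeR adjusted p = 0.000311) and 0.23 ± 0.035 with the offset (edgeR adjusted p = 9.96e-07), against -0.013 ± 0.058 (SE; edgeR adjusted p = 0.866) and -0.047 ± 0.060 (SE; edgeR adjusted p = 0.533) without it. PKMYT1, the membrane-bound inhibitory kinase of CDK1, gave -0.50 ± 0.047 with the offset (edgeR adjusted p = 1.02e-11) and -0.14 ± 0.079 (SE; edgeR adjusted p = 0.133) without it, and shares 24.5% of its exonic length with PAQR4 on the opposite strand. FOXM1 fell in both fits, at -0.21 ± 0.062 (SE; edgeR adjusted p = 0.00857) and -0.40 ± 0.036 with the offset (edgeR adjusted p = 4.09e-12), and so did MYBL2 (B-MYB), at -0.26 ± 0.061 (SE; edgeR adjusted p = 0.00108) and -0.54 ± 0.033 with the offset (edgeR adjusted p = 1.89e-16). Genes of the NF-Y subunits were mixed. NFYB gave -0.39 ± 0.082 (SE, edgeR adjusted p = 0.000401) and 0.26 ± 0.047 with the offset (edgeR adjusted p = 1.25e-05). NFYA passed in neither fit, at -0.074 ± 0.068 (SE, edgeR adjusted p = 0.379) and 0.068 ± 0.043 with the offset (edgeR adjusted p = 0.187). NFYC gave -0.016 ± 0.076 (SE, edgeR adjusted p = 0.879) and -0.14 ± 0.053 with the offset (edgeR adjusted p = 0.0229). These genes were picked after their values were seen.

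PRC1, a spindle midzone protein, averaged 5.81 ± 0.0438 CPM in F133V, against 6.62 ± 0.314 CPM in wild-type (SD, n = 2 each), whereas TPX2 averaged 331 ± 3.64 CPM in F133V, against 406 ± 4.65 CPM in wild-type (SD, n = 2 each). A gene on the same strand covers 57.6% of the exonic length of PRC1, and reads over several genes were left out of the counts. Whether this overlap lowers the PRC1 count was not tested. Both were picked after their values were seen.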
